A study of Mus musculus with 54 samples.

Results

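Round spermatids of BORIS KO mice were compared directly with round spermatids of CTCF HET mice, a contrast of the 2 single mutants that does not use the WT libraries. The comparison rests on 6 of the 54 samples of the series, 3 libraries of each genotype, chosen by genotype and cell type and by no measured value. CTCF HET mice (Ctcf+/- Boris+/+) lack 1 copy of Ctcf, and BORIS KO mice (Ctcf+/+ Boris-/-) lack both copies of Boris, which is listed as Ctcfl in the count table. All animals were C57BL/6 and 3 months old, and both knockouts are constitutive, so the somatic cells of the testis carry them too. Each germ cell preparation pooled 4 mice, and round spermatids were purified by elutriation and sorting of live cells on a DNA dye before poly(A) RNA was sequenced. Both groups are mutant, so a difference can lie in either of them, and WT values are given beside it for a few genes only.

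CTCF is a zinc finger protein that binds an insulator motif in every cell type and, with cohesin, holds the bases of chromatin loops. BORIS (CTCFL) is its testis paralogue, has nearly the same zinc finger domain and is made in male germ cells, where it occupies part of the CTCF sites. Round spermatids are the haploid cells that follow meiosis; they build the acrosome and the flagellum, switch on the protamine and transition protein genes, and translate many stored messages later.

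The 6 libraries held 47740650 to 87318776 counts over 23284 genes, and 15494 genes passed the filter on low counts. Levels are given as CPM, the counts of a gene per 1000000 counts of the library, scaled by the trimmed mean of M values (TMM) over the 6 libraries. Values of WT and compound mutant (CM, Ctcf+/- Boris-/-) round spermatids come from a scaling over the 12 round spermatid libraries. The libraries carried spermatid transcripts in both groups: Acrv1, an acrosome protein, was at 132, 123 and 159 CPM in CTCF HET and at 149.5, 158 and 166 CPM in BORIS KO. BORIS KO replicate 3 stood apart for the late spermatid messages, with Prm1, a protamine that replaces histones, at 144 CPM against 41.4 and 40.2 CPM in the other BORIS KO libraries and 92.3 to 115 CPM in CTCF HET. CTCF HET replicate 2 stood nearest to the BORIS KO libraries. Most markers of somatic testis cells were low. Sertoli marker genes summed to 32.6 to 38.9 CPM in CTCF HET and 31.8 to 37.2 CPM in BORIS KO, with Sox9 and Amh, which define those cells, under 0.1 CPM in every library. Of the 16 Leydig genes 13 averaged under 1 CPM and Insl3 had no count, the globin genes had no count in any of the 6 libraries, and Fcgr3, at 137 CPM on average, led the 15 macrophage genes. Transcripts of meiosis were not low in either group. Sycp1, a synaptonemal complex gene, was at 190, 123 and 208 CPM in CTCF HET and at 145, 132 and 141 CPM in BORIS KO. The spermatocyte and meiosis list summed to 5870 to 7390 CPM in CTCF HET and 4430 to 4640 CPM in BORIS KO.

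Between BORIS KO and CTCF HET round spermatids 7166 of 15494 genes (46.3%) passed an adjusted p of 0.05, 3618 of them (23.4%) higher and 3548 (22.9%) lower in BORIS KO, by the quasi-likelihood test of edgeR with Benjamini-Hochberg adjustment over all genes. At an adjusted p of 0.001 and a fold change above 2, 888 genes (5.73%) remained, 412 (2.66%) higher and 476 (3.07%) lower. The p-values measure the spread between libraries of the same genotype. The paper calls these libraries replicates and does not state whether each came from its own pool of mice. A difference in preparation shared by all libraries of a genotype is not part of that spread. The calls were graded by the base composition of the transcripts. When the genes were ordered by the GC content of their exons and cut into 10 bins, 2.14% of the bin lowest in GC were called higher and 57.7% lower in BORIS KO, with a median log2 fold change of -0.58, whereas in the bin highest in GC 59.6% were called higher and 3.07% lower, with a median of 0.69. Across 14974 genes, which are not independent replicates, the log2 fold change had a Spearman rho of 0.614 with exon GC content. The trend ran in opposite directions in the 2 groups, since each library's deviation from the mean of all 6 had a rho of -0.562, -0.21 and -0.644 with GC content in the CTCF HET libraries and of 0.572, 0.524 and 0.457 in the BORIS KO libraries. The plot of calls by GC content shows both patterns.

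**Figure D1:**
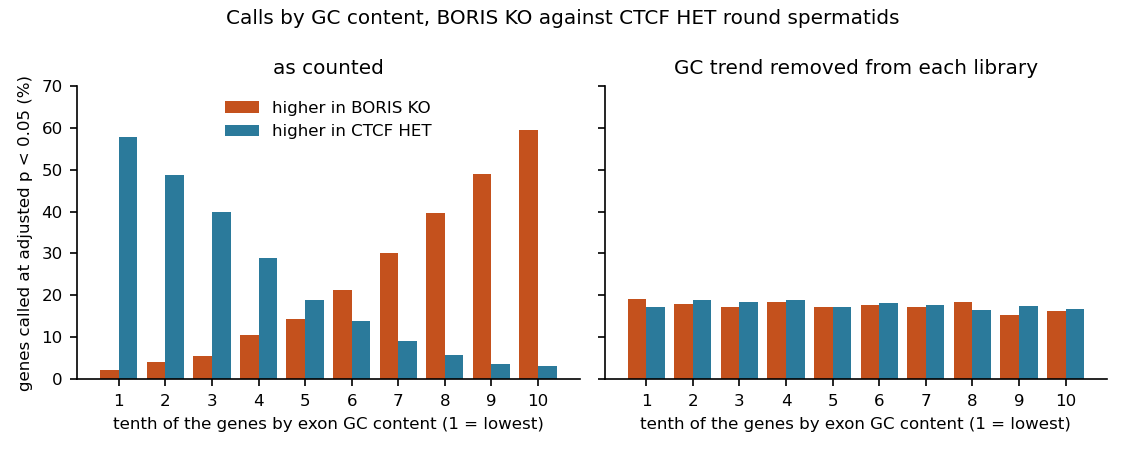
Share of genes called at an adjusted p of 0.05 (vertical axis, %) in each of 10 bins of the genes ordered by exon GC content (horizontal axis), orange for genes higher in BORIS KO and blue for genes higher in CTCF HET, as counted (left) and after each library's GC trend was removed (right). On the left, calls higher in BORIS KO climb from 2.14% to 59.6% and calls higher in CTCF HET fall from 57.7% to 3.07%, while on the right both stay between 15.4% and 20% in every bin.

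For this reason the main counts below are also given after a smooth trend on GC content was removed from every library, a setting chosen after the data had been seen, and so is each printed log2 fold change of a called gene that it moved by more than 1.5 times. With the trend removed 5449 genes (35.2%) were called, 2690 (17.4%) higher and 2759 (17.8%) lower, and at the stricter threshold 336 (2.17%), 138 (0.891%) higher and 198 (1.28%) lower in BORIS KO. At the stricter threshold 229 genes were called in the same direction with and without the trend, 90 higher and 139 lower. Whether the GC trend arose in the cells or in the preparation of the libraries was not tested. The stricter count also rests on single libraries: as counted, it was 117 genes without CTCF HET replicate 1 and 1341 without CTCF HET replicate 2. The count at an adjusted p of 0.05 was 5102 to 8092 with a library left out. One fit over the libraries of all 4 genotypes gave 35 (3 higher and 32 lower) and, at an adjusted p of 0.05, 1844 (581 higher and 1263 lower).

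The targeted genes were measured first. Ctcf (chr8:108160468-108206822, plus strand, mm9) was at 35.2, 23.2 and 26.3 CPM in CTCF HET and at 28.5, 26.7 and 30.8 CPM in BORIS KO. The groups overlapped, with a log2 fold change of 0.02 ± 0.15 (SE, adjusted p = 0.917), so Ctcf messenger did not separate the 2 mutants in round spermatids. Raw counts of Ctcf were 1136 to 2754 in CTCF HET and 1944 to 2231 in BORIS KO. WT round spermatids held 29.6 to 49.65 CPM, and the CM libraries, which carry the Ctcf knockout allele, held 177, 47.9 and 39.8 CPM. In the paper's PCR of testis, Ctcf messenger was below WT in both single mutants and lowest in CM. The CM round spermatid libraries did not follow that order. In whole testis Ctcf was at 22.9 to 30.3 CPM in CTCF HET and 30.7 to 38.8 CPM in BORIS KO, 2 ranges that do not overlap, with an adjusted p of 0.566, or 0.215 with the replicate number as a block. Ctcfl (chr2:172919110-172945026, minus strand) was at 2.72, 3.3 and 3.64 CPM in CTCF HET and at 2.19, 2.29 and 2.54 CPM in BORIS KO. All 3 BORIS KO libraries lay below all 3 CTCF HET libraries, with a log2 fold change of -0.46 ± 0.18, which missed the threshold as counted (adjusted p = 0.0537) and passed it with the GC trend removed (-0.68, adjusted p = 0.012). Over all alternatives tried its adjusted p ranged from 0.00867 to 0.491. The libraries labelled BORIS KO thus held 149 to 184 counts of Ctcfl each; which exons either knockout allele keeps is not given in the sources used here, so the counts of Ctcf and Ctcfl check the labels only in part.

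The clearest single difference lay next to Ctcf. Rltpr (now Carmil2; chr8:108210174-108222078, plus strand, mm9), which encodes a regulator of actin capping and starts 3352 bases after the end of Ctcf, was at 70.1, 82.5 and 64.9 CPM in CTCF HET and at 2.08, 1.98 and 1.68 CPM in BORIS KO. The groups lay far apart, and the libraries within each were close together. The log2 fold change was -5.24 ± 0.15 (adjusted p = 7.94e-09), -5.72 with the GC trend removed. The same contrast gave -4.33 in spermatocytes (adjusted p = 5.14e-05) and -5.83 in whole testis (adjusted p = 0.000214). WT round spermatids held 0.606 to 1.15 CPM and CM round spermatids 30.1 to 58.8 CPM, so Rltpr was high in both genotypes that carry the Ctcf knockout allele and low in both that do not. Rltpr lies so close to Ctcf that an effect of CTCF level and an effect of the knockout allele itself on its neighbour cannot be told apart.

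Of the 51 genes tested that start within 1 Mb of Ctcf, 25 were called higher (49.0%) and 6 lower (11.8%) in BORIS KO, and of the 47 from 1 to 5 Mb 9 were higher and 11 lower (23.4%), beside 23.4% and 22.9% of all genes. With the GC trend removed 9 and 11 of the 51 were called, and 6 and 15 of the 47. The genes within 1 Mb have a median GC content of 55.7%. Dpep3, a membrane dipeptidase made in spermatids, rose from 188 ± 8.53 CPM in CTCF HET to 438 ± 40.0 CPM in BORIS KO (SD, n = 3 each), a log2 fold change of 1.22 (adjusted p = 3.11e-05; 0.80 with the trend removed). Cmtm1, a chemokine-like membrane protein of the testis, was lower, at 116 ± 14.6 against 238 ± 5.12 CPM (-1.04, adjusted p = 5.28e-05; -1.27 with the trend removed). Ccdc79 (Terb1), which ties telomeres to the nuclear envelope in meiosis, was at 35.3 against 105 CPM (-1.57, adjusted p = 4.09e-05; -1.15 with the trend removed). Ranbp10 and Fam65a, the closest called genes that were lower besides Rltpr, differed by -0.63 and -0.71 on the log2 scale (-0.84 and -1.25 with the trend removed), and both lost the call in the fit over all 4 genotypes.

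Spo11 stood out on the other targeted chromosome. It encodes the enzyme that makes the DNA breaks of meiotic recombination, starts 142 kb from Ctcfl (chr2:172803201-172819077, plus strand, mm9) and has WT BORIS and CTCF peaks at an internal transcript start. Spo11 was at 64.9, 63.5 and 66.2 CPM in CTCF HET round spermatids and at 13.2, 12.9 and 10.3 CPM in BORIS KO round spermatids. The spread within either group was small beside the gap between them, with a log2 fold change of -2.42 ± 0.12 (adjusted p = 1.36e-06; -2.21 with the GC trend removed). WT round spermatids held 61.3 to 68.1 CPM, close to CTCF HET, and CM round spermatids held 15.8 to 24.7 CPM. In spermatocytes, where Spo11 acts, CTCF HET held 150.3 to 162 CPM and BORIS KO 106 to 115 CPM, and the difference was -0.47 (adjusted p = 0.00162). The CM spermatocytes, which lack Boris too, went the other way, at 173 to 193 CPM against 147 to 159 CPM in WT. In whole testis CTCF HET held 53.9 to 62 CPM and BORIS KO 37.3 to 44 CPM, ranges that do not overlap, with a difference of -0.48 (adjusted p = 0.397, or 0.0851 with the replicate number as a block).

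2010011I20Rik (Fam210b), which encodes a mitochondrial membrane protein and starts 774 kb from Ctcfl (chr2:172171065-172181249, plus strand), went the other way. It was at 1.89, 2.04 and 1.65 CPM in CTCF HET and at 15.7, 16.3 and 14.8 CPM in BORIS KO, a log2 fold change of 3.06 ± 0.14 (adjusted p = 9.52e-07) that stayed at 3.01 with the GC trend removed. WT round spermatids lay between the 2 mutants, at 4.71 to 5.69 CPM. Spermatocytes showed the same difference (3.11, adjusted p = 0.000577), while in whole testis, whose libraries were made from rRNA-depleted RNA with another kit and sequencer, the ranges of the 2 mutants overlapped (0.08, adjusted p = 0.937). Of 22 genes tested within 1 Mb of Ctcfl 10 were called higher (45.5%) and 3 lower (13.6%), and of 28 from 1 to 5 Mb 5 were higher (17.9%) and 7 lower, beside 23.4% and 22.9% of all genes. With the trend removed 6 and 3 of the 22 were called, and 4 and 8 of the 28. Atp5e, a subunit of the mitochondrial ATP synthase, rose from 8.04 to 19.7 CPM (1.29, adjusted p = 0.000145), and Atp9a, a phospholipid flippase of endosomes, from 26.8 to 76.3 CPM (1.51, adjusted p = 2.98e-05; 0.95 with the trend removed). Ankrd60, an ankyrin repeat gene, fell from 230.2 to 157 CPM (-0.55 as counted, adjusted p = 0.00102; -1.16 with the trend removed), a call that was lost in the fit over all 4 genotypes.

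Genes called at the stricter threshold were also counted by distance. They were 9.09% of the genes within 1 Mb of Ctcfl, 10.7% from 1 to 5 Mb, 10.9% from 5 to 10 Mb and 22 of 115 genes from 10 to 20 Mb, against 6.43% of the 933 genes farther away on that chromosome. With the GC trend removed they were 13.6%, 14.3%, 5.47% and 6.96%, against 2.04% farther away and 2.17% of all genes tested. These are counts of 3, 4, 7 and 8 genes, and no test of position was made. Around Ctcf the shares were 11.8%, 6.38%, 0% and 4.17% in the same 4 bins as counted, against 6.84% of the 468 genes farther away. With the trend removed they were 3.92%, 6.38%, 2.56% and 1.19%, from counts of 2, 3, 1 and 2 genes, against 2.99% farther away. The plot of calls by distance shows these shares. For genes on the same chromosome, loss of BORIS and sequence inherited together with the knockout allele cannot be told apart.

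**Figure D2:**
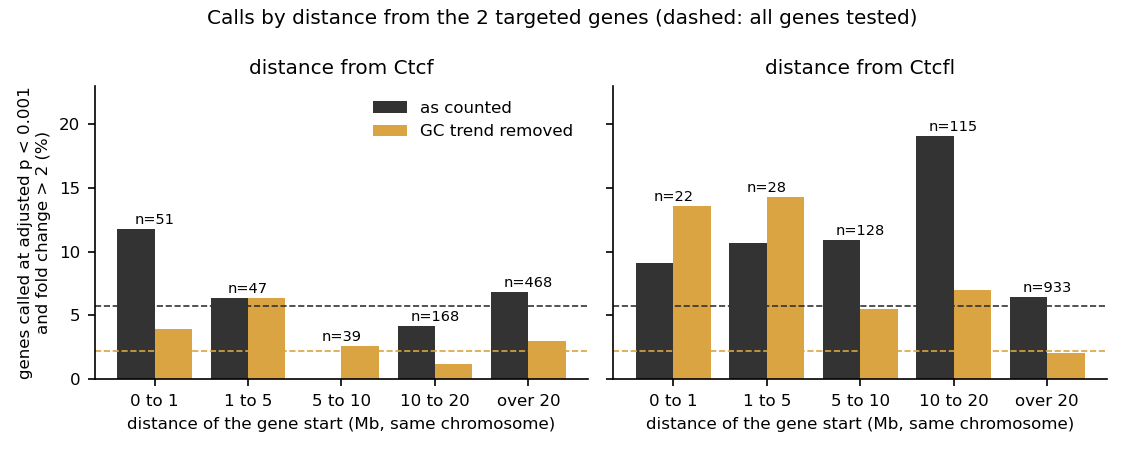
Share of genes called at an adjusted p of 0.001 and a fold change above 2 (vertical axis, %) by distance of the gene start from Ctcf on chromosome 8 (left) and Ctcfl on chromosome 2 (right), black as counted and gold with the GC trend removed; n is the number of genes tested in each bin and dashed lines mark all genes tested. The bins within 20 Mb of Ctcfl lie at 9.09% or more as counted, above the 5.73% of all genes. So do the bins within 1 Mb of Ctcf (11.8%), from 1 to 5 Mb (6.38%) and over 20 Mb (6.84%), and the bin over 20 Mb from Ctcfl (6.43%).

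Among the genes with the largest differences several were near silent in 1 of the 2 mutants. Spinlw1 (Eppin), a protease inhibitor of the sperm surface, had 220, 407 and 128 counts in CTCF HET and 2, 0 and 2 counts in BORIS KO (log2 fold change -7.55, adjusted p = 1.97e-05). WT round spermatids held 0.385 to 2.49 CPM, between the 2 mutants, and CM round spermatids 0.0 to 0.271 CPM. Mosc2 (Mtarc2), a molybdenum enzyme of mitochondria, was at 0.153, 0.246 and 0.209 CPM in CTCF HET and 2.98, 2.42 and 2.79 CPM in BORIS KO, with no overlap (3.75, adjusted p = 1.89e-05). Prss41, a serine protease of the testis, was at 0.332, 0.424 and 0.301 CPM in CTCF HET and 3.04, 2.37 and 2.08 CPM in BORIS KO (2.80 ± 0.25, adjusted p = 3.69e-05), but lost its call in the fit over all 4 genotypes. WT round spermatids, at 0.84 to 1.39 CPM, lay between the mutants, and the 3 CM libraries held 0.348, 0 and 0 CPM.

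Dnahc11, an axonemal dynein heavy chain, was at 0.435, 0.274 and 0.417 CPM in CTCF HET and 4.58, 7.94 and 1.57 CPM in BORIS KO (3.65, adjusted p = 0.00236). The BORIS KO libraries differed widely among themselves but all lay above CTCF HET, and the gene was also higher in BORIS KO whole testis (4.17, adjusted p = 0.00189), where WT libraries ranged from 2.43 to 57.9 CPM. Csmd1, a complement regulator with sushi domains, was at 2.4 against 11 CPM (2.20, adjusted p = 1.89e-05). Sgk2, a serum and glucocorticoid regulated kinase, was at 0.742, 0.657 and 1.41 CPM in CTCF HET and 6.51, 5.93 and 4.91 CPM in BORIS KO (2.67, adjusted p = 5.43e-05). It lies on chromosome 2 as well and was higher in BORIS KO in spermatocytes (1.96) and whole testis (1.84, adjusted p = 0.0141).

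Ccdc110, a coiled-coil gene, was among the abundant messages that were lower. It was at 1029, 819 and 1113 CPM in CTCF HET and 249, 239 and 225 CPM in BORIS KO (-2.05 ± 0.12, adjusted p = 6.39e-06; -1.81 with the GC trend removed). WT round spermatids held 861 to 885 CPM. The difference was -2.52 in spermatocytes and -1.60 in whole testis (adjusted p = 0.042). Mme (neprilysin), a peptidase of the cell surface, fell from 5.94 to 0.899 CPM (-2.72, adjusted p = 1.21e-05; -2.17 with the trend removed), Myh13, a myosin heavy chain, from 4.86 to 0.603 CPM (adjusted p = 1.97e-05) and Ptprt, a receptor tyrosine phosphatase, from 1.7 to 0.256 CPM (-2.72, adjusted p = 5.28e-05). Myh13 lost its call in the fit over all 4 genotypes. Ptprt lies on chromosome 2, as Ctcfl does. The plot of 6 genes by library shows how tight the groups were.

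**Figure D3:**
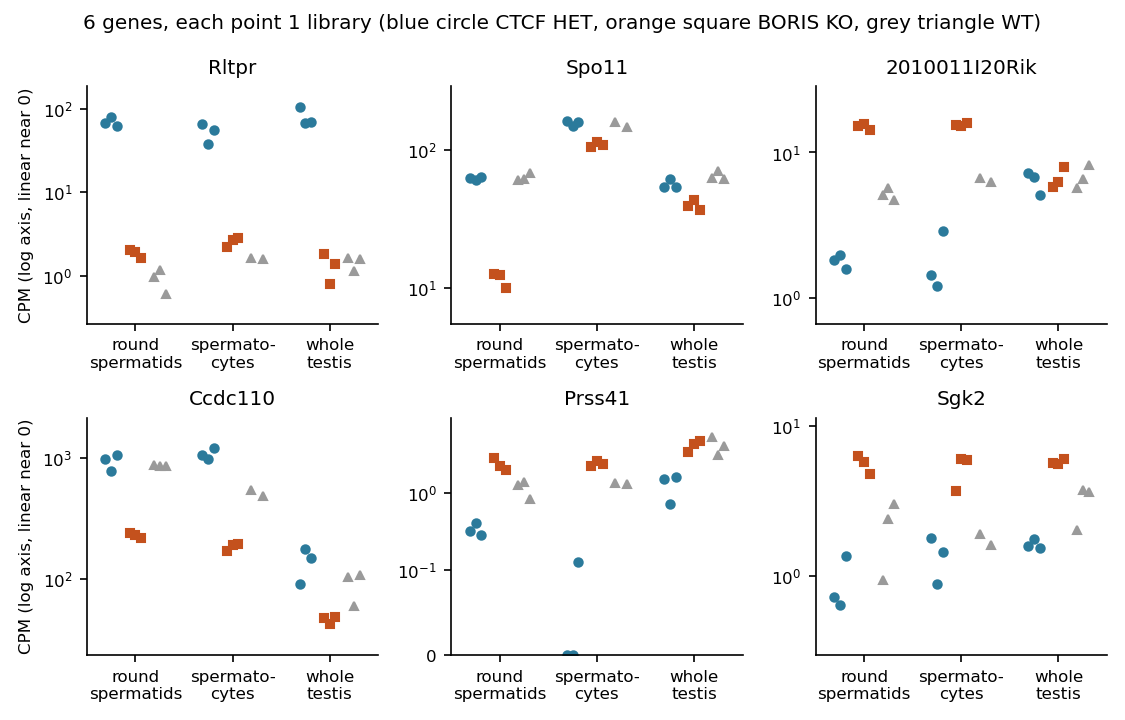
Level of 6 genes in CPM (vertical axis, logarithmic and linear near 0) in every CTCF HET (blue circles), BORIS KO (orange squares) and WT (grey triangles) library of round spermatids, spermatocytes and whole testis; each set of libraries was scaled on its own. Rltpr is high only in the CTCF HET libraries shown, Spo11 is lowest in BORIS KO round spermatids, and 2010011I20Rik separates the mutants in both purified cell types and not in whole testis.

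Ribosomal protein genes were called higher in BORIS KO more often than all genes were. Of 81 cytosolic ribosomal protein genes tested 49 were called higher in BORIS KO (60.5%) and 5 lower (6.17%), beside 23.4% and 22.9% of all genes. Their median log2 fold change was 0.49 against 0.04 over all genes. With the GC trend removed 46 were higher and 8 lower, beside 17.4% and 17.8% of all genes, and the median was 0.40. Removing a trend on exon length too left 43 higher and 11 lower, and the fit over all 4 genotypes gave 22 higher and 3 lower. In spermatocytes 54 of 79 were higher and 7 lower, and in whole testis the median was 0.025. Rpl13 was at 23.2 ± 5.52 CPM in CTCF HET and 82.7 ± 10.6 CPM in BORIS KO (SD, n = 3; 1.83, adjusted p = 4.09e-05), and Rpl37a rose from 11.9 to 34.5 CPM (1.53, adjusted p = 3.69e-05). Rpl10l, the retrogene copy that serves germ cells while the X-linked original is silent, went down instead, from 243 to 121 CPM (adjusted p = 4.69e-05). The summed level of the 85 ribosomal protein genes listed was 4310, 4630 and 4020 CPM in CTCF HET and 5310, 5340 and 5010 CPM in BORIS KO, with no overlap (two-sided exact permutation p = 0.1, the smallest that 3 against 3 allows). Ribosomal protein genes have many near-identical pseudogenes, so the share of each single gene in these reads is uncertain.

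Mitochondrial energy genes followed. Of 86 nuclear genes of the respiratory chain 40 were higher (46.5%) and 13 lower (15.1%) in BORIS KO, beside 23.4% and 22.9% of all genes. With the GC trend removed 38 were higher and 10 lower, beside 17.4% and 17.8% of all genes. The medians were 0.27 as counted and 0.26 with the trend removed. Ndufa7, a complex I subunit, rose from 33.3 to 74.1 CPM (1.15, adjusted p = 8.29e-05) and Cox5a, a subunit of cytochrome oxidase, from 71.1 to 126 CPM (0.82, adjusted p = 0.000104). Uqcrb of complex III fell from 155 to 49.6 CPM (-1.64, adjusted p = 3.28e-05) and Ndufs6 of complex I from 103 to 53.1 CPM (-0.96, adjusted p = 4.58e-05); Ndufs6 lost its call in the fit over all 4 genotypes and was higher in BORIS KO in spermatocytes (0.97). With a trend on exon length removed as well 31 were higher and 12 lower, and the fit over all 4 genotypes gave 15 and 5.

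Of 34 isozymes that germ cells use for glycolysis and respiration 16 were higher (47.1%) and 2 lower (5.88%), beside 23.4% and 22.9% of all genes. With the trend removed 16 were higher and 1 lower, beside 17.4% and 17.8% of all genes. Aldoart2, a spermatid aldolase, rose from 75.2 to 194 CPM (1.36, adjusted p = 3.38e-05; 1.12 with the trend removed) and Cox6b2, the testis form of a cytochrome oxidase subunit, from 67.5 to 135 CPM (1.00, adjusted p = 9.34e-05; 0.63 with the trend removed). Cyct, the testis cytochrome c, fell from 192 to 72.8 CPM (-1.40, adjusted p = 3.02e-05; -0.92 with the trend removed). Ldhc, the sperm lactate dehydrogenase and the most abundant of the isozymes named here, was at 4241 and 3852 CPM and did not pass the test (adjusted p = 0.201).

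Of 37 ubiquitin and proteasome genes 13 were higher (35.1%) and 8 lower (21.6%), the latter close to the share of all genes (23.4% higher and 22.9% lower). With the trend removed 15 were higher and 4 lower, beside 17.4% and 17.8% of all genes. Ubb, a polyubiquitin gene, was at 429.7, 595 and 425 CPM in CTCF HET and 1132, 1122 and 962 CPM in BORIS KO (1.15, adjusted p = 0.000111; 0.75 with the trend removed). The core subunits Psma4 and Psma3 fell, with log2 fold changes of -1.05 and -1.04 (-0.77 and -0.51 with the trend removed). The plot of gene lists gives every list side by side.

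Genes that build the spermatid follow. Each list here and below is read against 23.4% higher and 22.9% lower of all genes, and 17.4% and 17.8% with the GC trend removed. The list of testis-specific serine kinases, which act late in spermatid shaping, also holds the gene of their substrate, Tsks. All 7 genes of the list were called higher in BORIS KO. With the GC trend removed 3 were called higher, and in the fit over all 4 genotypes 4 were. Tssk4 was at 78.8, 90.5 and 77 CPM in CTCF HET and 151, 148 and 145 CPM in BORIS KO (0.85, adjusted p = 8.43e-05; 0.65 with the trend removed). Tssk5 rose from 5.33 to 10.9 CPM (1.04, adjusted p = 0.000239; 0.68 with the trend removed) and Tssk2 from 97.5 to 157 CPM (0.68, adjusted p = 0.000351; 0.37 with the trend removed). In spermatocytes, which have yet to switch these genes on, 1 was called higher and 1 lower. In whole testis none of the 7 was called, and their median log2 fold change was -0.22.

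The list of protamine, transition protein and spermatid histone genes also holds other genes, such as Brdt, Chd5 and Rnf8. Of its 17 genes tested 4 were called higher (23.5%) and 2 lower (11.8%), and 2 and 1 with the trend removed. The 1 still lower was Brdt (-0.62 as counted and -0.29 with the trend removed). Hils1, a linker histone of elongating spermatids, rose from 40.5 to 90.7 CPM (1.16, adjusted p = 5.01e-05; 0.84 with the trend removed). H1fnt, another linker histone of spermatids, was at 25.4, 25.9 and 22 CPM in CTCF HET and 41.3, 42.5 and 79.8 CPM in BORIS KO (1.16, adjusted p = 0.00455), but missed the threshold with the trend removed (0.62) and without CTCF HET replicate 2 or 3. Prm1, Prm2, Tnp1 and Tnp2 did not pass the test. Tnp2, a transition protein, for example, was at 57, 67.9 and 52.9 CPM in CTCF HET and 79.2, 78.4 and 235 CPM in BORIS KO (adjusted p = 0.106), where BORIS KO replicate 3 stood far above the other BORIS KO libraries.

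Of 48 acrosome and gamete fusion genes 15 were higher (31.2%) and 14 lower (29.2%) in BORIS KO, and 19 and 9 with the trend removed. Spaca4, a sperm membrane protein, was at 10.8, 12.4 and 9.24 CPM in CTCF HET and 34.6, 36.2 and 34.2 CPM in BORIS KO (1.69, adjusted p = 2.03e-05; 1.05 with the trend removed), and Spaca3, a lysozyme-like acrosomal protein, rose by 1.48 (adjusted p = 3.38e-05; 1.19 with the trend removed). Cylc1, an X-linked cytoskeletal protein of the sperm head, fell from 257 to 81.1 CPM (-1.66, adjusted p = 9.49e-05; -0.86 with the trend removed) and Clgn, a chaperone needed for sperm surface proteins, from 3587 to 2036 CPM (-0.82, adjusted p = 7.14e-05; -0.49 with the trend removed).

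Of 80 flagellum genes 21 were higher (26.2%) and 28 lower (35.0%), and 17 and 28 with the trend removed. Meig1, which is needed to build the flagellum, was at 5170.3, 4177 and 4546 CPM in CTCF HET and 1997, 1948 and 2233 CPM in BORIS KO (-1.17, adjusted p = 3.38e-05, and -0.99 with the trend removed). Odf3, an outer dense fibre gene, rose instead, from 32.2 to 81.9 CPM (1.34, adjusted p = 5.28e-05, and 0.86 with the trend removed). Of 28 sperm ion channel and transporter genes 7 were higher, close to the share of all genes, and 10 lower (35.7%), and 7 of each with the trend removed. The CatSper calcium channel split among its subunits: Catsper2 fell from 1287 to 647 CPM (-0.99, adjusted p = 5.67e-05; -0.86 with the trend removed), Catsperb fell as well (-1.42, adjusted p = 9.78e-05; -0.67 with the trend removed), and Catsper4 rose by 0.66 (adjusted p = 0.000296; 0.53 with the trend removed).

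Meiotic genes were called lower in BORIS KO more often than higher. Of 51 spermatocyte and meiosis genes 8 were higher and 23 lower (median -0.36), and 4 and 12 with the GC trend removed (median -0.04). The list has a median GC content of 44.9% against 49.7% for all genes. Hormad1, a protein of the meiotic chromosome axis, was at 57.8, 49.3 and 69.9 CPM in CTCF HET and 22.6, 24.3 and 20.9 CPM in BORIS KO (-1.38, adjusted p = 4.58e-05; -0.57 with the trend removed), with CTCF HET replicate 2 nearest to BORIS KO. Sycp3, a synaptonemal complex protein that marks spermatocytes, was at 99.5, 70.6 and 105 CPM in CTCF HET and 48.1, 49 and 46.4 CPM in BORIS KO. In bulk libraries, fewer residual meiotic cells and less messenger per cell cannot be told apart.

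The list of cohesin and loop extrusion genes also holds Ctcf, Ctcfl and DNA-binding factors such as Yy1 and Maz. It gave 5 higher and 14 lower of 30 (median -0.48), and 2 and 10 with the trend removed (median -0.10). Smc1b, the meiotic cohesin subunit, fell from 1355 ± 304 to 499 ± 35.3 CPM (SD, n = 3; -1.44, adjusted p = 7.83e-05; -0.82 with the trend removed). Smc3, a core subunit in all cells, was at 322, 242 and 326 CPM in CTCF HET and 137, 130.4 and 148 CPM in BORIS KO (-1.10, adjusted p = 7.98e-05; -0.58 with the trend removed). Wapal, which releases cohesin from chromatin, fell as well (-0.80, adjusted p = 0.000111; -0.33 with the trend removed).

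Germ granule and piRNA genes gave 3 higher and 9 lower of 23, and 1 and 7 with the trend removed. Pabpc1, the poly(A) binding protein and an abundant message here, was at 11557, 8517 and 12600.0 CPM in CTCF HET and 5742, 5746 and 6091 CPM in BORIS KO (-0.89, adjusted p = 0.000322; -0.48 with the trend removed). Mybl1, the factor that drives pachytene piRNA transcription, fell from 123 to 56.3 CPM (-1.12, adjusted p = 0.000344; -0.33 with the trend removed). Of 33 spermatid transcription regulators 7 were higher and 14 lower, and 8 and 10 with the trend removed. Crem, the master activator of spermatid genes, was at 470.0 and 293 CPM (-0.68, adjusted p = 0.000967), but missed the threshold with the trend removed (-0.15). Cpeb2, a translational regulator, rose by 0.50 as counted (adjusted p = 0.000641) and by 0.72 with the trend removed, a call that was lost in the fit over all 4 genotypes.

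Sex-linked genes were called lower in BORIS KO more often than higher as counted, and not so with the GC trend removed. The X chromosome, which round spermatids keep largely silent after meiosis, took 0.631%, 0.595% and 0.66% of the counts in CTCF HET and 0.481%, 0.498% and 0.567% in BORIS KO, with no overlap (two-sided exact permutation p = 0.1, the smallest possible). Of 569 X-linked genes tested 42 were called higher (7.38%) and 160 lower (28.1%), with a median log2 fold change of -0.24 against 0.05 for autosomal genes. The median GC content of the X-linked genes was 44.4%. With the GC trend removed 70 were higher and 68 lower, with a median of 0.04. In the 2 middle bins of GC content 5 of 74 X-linked genes were higher (6.76%) and 12 lower (16.2%) as counted. Of all 2994 genes there 535 were higher (17.9%) and 491 lower (16.4%), so fewer X-linked genes were called higher there. The cause of the X-linked difference was not tested. Of 9 Y-linked genes 6 were lower as counted and none in either direction with the trend removed, and their median GC content was 38.4%. The list of 15 multicopy and sex-linked spermatid genes went from 1 higher and 9 lower to 1 of each.

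Genes that the study itself singled out, at CTCF or BORIS sites or for its own RNA checks, form a list chosen on samples of the same series, which is therefore not independent evidence. Of 24 tested 7 were called higher and 3 lower in BORIS KO, and 5 and 3 with the GC trend removed. Tcp11, a sperm tail gene, was at 959, 1204 and 949.8 CPM in CTCF HET and 1653, 1641 and 1662 CPM in BORIS KO (0.67, adjusted p = 0.00045; 0.41 with the trend removed), a call that was lost in the fit over all 4 genotypes, and Prss38, a serine protease, rose from 2.57 to 5.4 CPM (1.07, adjusted p = 0.000355). Gal3st1, which makes the sulfated lipid of the sperm membrane, was low in both genotypes, at 0.422, 0.274 and 0.348 CPM in CTCF HET and 0.235, 0.118 and 0.11 CPM in BORIS KO (-1.18, adjusted p = 0.0312; -1.83 with the trend removed), and lost its call with DESeq2, in the fit over all 4 genotypes and without any 1 of 4 libraries (CTCF HET replicates 1 and 3, BORIS KO replicates 2 and 3). Kit, the stem cell factor receptor, was at 3.58, 5.02 and 3.27 CPM and 4.45, 4.32 and 8.68 CPM, with overlapping groups (adjusted p = 0.131). Crisp2, an abundant acrosome and tail protein, was at 3218 and 2036 CPM (-0.66, adjusted p = 0.000667), a call that was lost with the trend removed (-0.13).

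WT germ cell ChIP-seq peak lists were then set against the contrast. Of the 15494 genes, 2724 had a summit of 1 of the 7652 BORIS peaks within 1 kb of an annotated transcript start. Of these 763 (28%) were called higher and 643 (23.6%) lower in BORIS KO, beside 2036 (21.4%) and 2222 (23.4%) of the 9496 genes with neither a BORIS nor a CTCF peak there. With the GC trend removed 490 of the 2724 genes near a BORIS peak were higher and 552 lower. Of the 9496 genes with neither peak 1622 were called in each direction, beside 17.4% higher and 17.8% lower of all genes. The 612 genes with a BORIS peak and no CTCF peak gave 145 higher (23.7%) and 198 lower (32.4%) as counted, and 100 and 140 with the trend removed. Within the 2 middle bins of GC content, 96 and 92 of 507 genes with a BORIS peak (18.9% and 18.1%) and 342 and 310 of 1928 genes with neither peak (17.7% and 16.1%) were called higher and lower.

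By smallest p among genes with a BORIS peak at a start and a fold change above 2, the genes higher in BORIS KO were Atp9a, Dpep3, Uhrf1bp1, Pkig, Prss41 and Arhgap33, and those lower were Spo11, Ccdc110, Atp6v1d, Crk, Hnrnpr and Col1a1. For 8 of the 12 the RefSeq promoter table held a promoter, and 3 of these 8 held the letters AGNGGGCGC, taken here as the core of the CTCF motif and searched on both strands in the 250 bases before the start. The letters were held by 315 of 2189 promoters of tested genes with a BORIS peak at a start (14.4%) and by 571 of 12236 promoters of all tested genes (4.67%). The 3 are shown because the start of each also carries a BORIS and a CTCF peak in WT cells; each is 61 bases of GRCm38.p6, 5′ to 3′ on the gene's strand, with the motif in capitals.
Prss41, chr17:23844170-23844230, minus strand: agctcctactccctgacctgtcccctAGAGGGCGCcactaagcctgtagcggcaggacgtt
Dpep3, chr8:105979483-105979543, minus strand: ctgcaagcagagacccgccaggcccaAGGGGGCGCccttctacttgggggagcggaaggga
Atp6v1d, chr12:78861786-78861846, minus strand: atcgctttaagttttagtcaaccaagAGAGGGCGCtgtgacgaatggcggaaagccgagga

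The motif ends 39 bases before the start of Prss41, 89 before that of Dpep3 and 173 before that of Atp6v1d. In the WT peak lists, whose positions are in mm9, the BORIS summit lies 45 bases before the start of Prss41 with a CTCF summit 35 bases before it, 72 and 73 bases before the start of Dpep3, and 325 and 243 bases before the start of Atp6v1d. Peak height was 303, 1206 and 353 for BORIS and 3939, 3395 and 632 for CTCF, in the peak caller's units. The genes moved in different directions, since Prss41 and Dpep3 were higher in BORIS KO, as described above, and Atp6v1d, a subunit of the proton pump that acidifies vesicles, was at 439.8, 376 and 438 CPM in CTCF HET and 175, 162 and 186 CPM in BORIS KO (-1.26, adjusted p = 3.11e-05; -0.80 with the GC trend removed). A match of letters is a description and no sign of binding, and the mutants' own binding was not measured in these libraries. Hnrnpr, an RNA binding protein with a BORIS peak and no CTCF peak, fell from 189.7 to 61.7 CPM (-1.62, adjusted p = 3.38e-05; -1.39 with the trend removed).

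Markers of other testis cells were called about as often as all genes or less often, except for the Leydig list, of which 2 of 3 genes tested were higher, and the 7 macrophage genes, of which 2 were higher (28.6%) and 1 lower. Of 15 Sertoli genes tested 1 was higher and 1 lower (6.67% each), of 25 spermatogonial genes 5 (20.0%) and 6 (24.0%), and of 16 peritubular, stromal and endothelial genes 2 (12.5%) and 3 (18.8%). With the trend removed the counts were 0 and 2 for Sertoli, 2 and 4 for spermatogonial, 2 and 2 for stromal, 1 and 0 for Leydig and 2 and 2 for macrophage genes. Col1a1, the fibrillar collagen of stromal cells, was at 9.93, 12.1 and 10.7 CPM in CTCF HET and 3.52, 3.42 and 2.81 CPM in BORIS KO (-1.74, adjusted p = 3.38e-05; -2.28 with the trend removed), but lost its call in the fit over all 4 genotypes. The part of stromal cells in these values was not tested. The stromal list summed to 24.3 to 27.1 CPM in CTCF HET and 18.3 to 21 CPM in BORIS KO. Aif1, a macrophage marker that germ cells also express, rose from 64.4 to 94.8 CPM (0.56, adjusted p = 0.00186; 0.30 with the trend removed; the call was lost in the fit over all 4 genotypes), while the macrophage list as a whole overlapped between the groups, at 195 to 283 and 210 to 267 CPM. The 16 Leydig genes summed to 14.7 to 18 CPM in CTCF HET and 21.4 to 27.4 CPM in BORIS KO, most of it from Fdx1, a mitochondrial ferredoxin at 17.1 CPM on average. Proliferation genes gave 4 higher and 7 lower of 24, and 3 and 5 with the trend removed, and regulators of apoptosis 6 and 4 of 22, and 4 and 2 with the trend removed.

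The same 2 genotypes were also compared in spermatocytes and in whole testis, with other libraries. In spermatocytes 6381 of 13642 genes (46.8%) were called, 3503 higher (25.7%) and 2878 lower (21.1%) in BORIS KO, and the log2 fold change had the same kind of relation with GC content (rho 0.61 over 13260 genes). The CTCF HET spermatocyte libraries held few genes with a count, 12018 to 13406. In whole testis, from another library kit and sequencer, 75 of 16585 genes (0.452%) were called, 31 higher (0.187%) and 44 lower (0.265%), and the relation with GC content was weak and of opposite sign (rho -0.148). The whole testis libraries of the same number deviated together, and with the replicate number as a block 780 genes were called there, 440 higher and 340 lower. Without CTCF HET replicate 2, 4 genes were called in whole testis, and without CTCF HET replicate 1, 143.

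Of the 888 round spermatid genes called at the stricter threshold, 808 of the 847 tested in spermatocytes (95.4%) had the same direction there, beside 77.3% of all genes tested in both. In whole testis 366 of 860 (42.6%) had the same direction, beside 47.1% of all genes. For the 229 genes called with and without the GC trend the shares were 203 of 217 (93.5%) in spermatocytes and 122 of 214 (57%) in whole testis. Whether the spermatocytes and round spermatids came from the same mice is not given in the sources used here. Of the 229, 9 were called in whole testis, all 9 in the same direction, and with the replicate block 26 in the same and 4 in the opposite direction. The 9 were Rltpr, Ptprt, Ccdc110, Grap2, Gm7694 and Psca lower in BORIS KO, and Sgk2, Hddc3 and Myo7b higher. Rltpr and Ccdc110 lie on chromosome 8, as Ctcf does, and Ptprt and Sgk2 on chromosome 2, as Ctcfl does. Of these genes only Rltpr starts within 5 Mb of the targeted gene on its chromosome. Grap2, Psca and Myo7b lost their round spermatid call in the fit over all 4 genotypes. Grap2, an adaptor of immune cell receptors, differed by -1.69 in round spermatids and -1.85 in whole testis, Gm7694 by -1.43 and -2.15, and Psca, a membrane antigen, by -1.05 and -1.45 (-1.59 in round spermatids with the GC trend removed). Hddc3, a hydrolase of the alarmone ppGpp, differed by 1.42 and 2.25 and Myo7b, a myosin of brush borders, by 1.97 and 2.64.

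**Figure D4:**
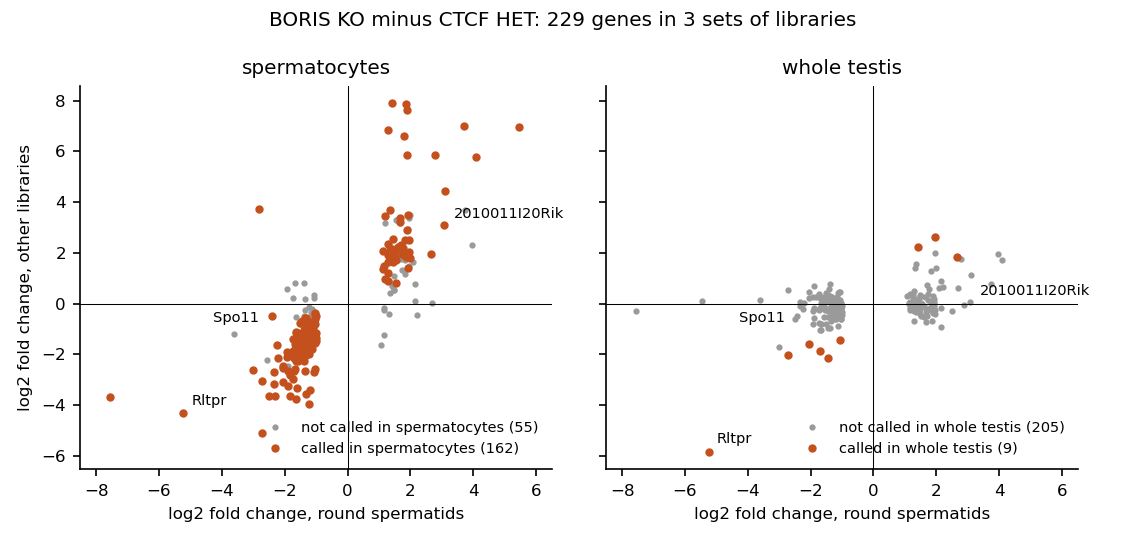
Log2 fold change of BORIS KO over CTCF HET in round spermatids (horizontal axis) against that in spermatocytes (left) and whole testis (right) for the genes called at the stricter threshold with and without the GC trend; orange points were called at an adjusted p of 0.05 in the other libraries and grey points were not. In spermatocytes 203 of 217 genes lie on the same side of 0 as in round spermatids, while in whole testis most genes lie close to 0 and Rltpr stands alone at the lower left.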

How the data were processed

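The values used are the counts per gene that the authors deposited for the sorted cells. The authors aligned single-end reads of poly(A) RNA to mm9 with STAR; the counting tool, the annotation and the use of strand are not given in the sources used here, so reads of overlapping or antisense genes cannot be told apart. Whole testis counts came from rRNA-depleted libraries on an Ion Proton sequencer, aligned by the authors with TopHat2 and then Bowtie2. Peak height (signal) is as the authors' peak caller gave it, from 1 list for the replicates of each factor.

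Genes were tested with edgeR 4.0.16 (R 4.3.3): filterByExpr with a minimum count of 10 and a minimum total of 15, TMM scaling, and the robust quasi-likelihood test with Benjamini-Hochberg adjustment over all genes tested, on the 6 libraries of both genotypes. Gene positions and exon GC content came from the mm9 annotation, and the GC trend was a lowess curve (span 0.3) fitted in each library over genes with a mean CPM of at least 1. DESeq2 1.42.0, other scalings, no filter, a replicate block, all 4 genotypes in one fit and leaving out each library were alternatives. Summed levels were compared by two-sided exact permutation tests. The scripts were tested on simulated data.

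The genes and lists were chosen with earlier results of these data known. Named were Ctcf, Ctcfl and the study's loci, called genes within 5 Mb of either targeted gene, the 12 largest changes and 8 smallest p in each direction, up to 5 called genes of each list by p, and up to 6 genes in each direction with a BORIS summit within 1 kb of a start. Crem, Ldhc, Tnp2 and the genes also called in whole testis were chosen after their values were seen. Whole testis libraries of the same replicate number deviated together (residual correlations 0.614, 0.129 and 0.328), so a block on that number was added there after the data had been seen. Sequences are from RefSeq promoters on GRCm38.p6. A few genes that the rule names are not reported here.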

Additional observations from a re-analysis of the deposited data

How the results depend on the processing

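Depth was at least 47740650 counts in each library, and no thinning of the counts was tried. Of the counts at an adjusted p of 0.05 (7166 as reported), scaling by DESeq2's size factors in edgeR (7184), DESeq2 (7069), no filter (7043) and the replicate block (6844) changed little. One fit over all 4 genotypes gave 1844 genes (581 higher, 1263 lower), and a fold change above 2 left 1672. At the stricter threshold (888 genes) the same fit over 4 genotypes gave 35 (3 higher, 32 lower), and removing the GC trend gave 336, the GC and length trends 327, and the GC trend with the replicate block 308. The cause of the drop in the fit over 4 genotypes was not tested. X-linked genes called lower (160) fell to 54 with 4 genotypes, 68 with the GC trend removed, 71 with length as well and 67 with the block as well. Ctcfl (-0.46, adjusted p = 0.0537) passed the threshold with RLE size factors (-0.47), DESeq2 (-0.47), the GC trend removed (-0.68), length as well (-0.66) and the block as well (-0.68), in edgeR except where DESeq2 is named, and its adjusted p ranged from 0.00867 to 0.491 over its alternatives.

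Leaving out each library in turn gave 5102 to 8092 genes at 0.05, and 3630 to 5916 with the GC trend removed (3992, 4434 and 3984 without CTCF HET replicate 3, BORIS KO replicate 1 and BORIS KO replicate 2). The stricter count ranged from 117 to 1341, and from 112 to 474 with the trend removed (146, 228, 200 and 350 without CTCF HET replicate 3 and BORIS KO replicates 1, 2 and 3). The X-linked count ranged from 121 to 204, and with the trend removed from 48 to 100 (74 without CTCF HET replicate 2 and 52 without CTCF HET replicate 3, BORIS KO replicate 1 or BORIS KO replicate 2). Ctcf ranged from -0.15 to 0.17, with -0.07 without CTCF HET replicate 3 and -0.031 without BORIS KO replicate 3, and was -0.033 without CTCF HET replicate 2 with the trend removed, none of them past the threshold. Ctcfl ranged from -0.60 to -0.41, and with the trend removed from -0.79 to -0.55 (-0.71, -0.62, -0.67 and -0.76 without CTCF HET replicate 2 and BORIS KO replicates 1, 2 and 3). Tnp2, not called as counted, was at -0.19 without BORIS KO replicate 3 with the trend removed.

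Round spermatid libraries of the same number did not deviate together (residual correlations 0.0598, -0.141 and -0.0656) and share only a number; with the replicate block 6844 genes and, at the stricter threshold, 917 were called, and the block changed no other call of a named gene. In whole testis the block gave 780 genes, DESeq2 272, and leaving out a library 4 to 143 (the lowest without CTCF HET replicate 2). In spermatocytes the block gave 5721 genes, removing the GC trend 4642, and leaving out a library 4747 to 7818. Of the 78 named genes, 14 lost their call in the fit over 4 genotypes, 3 with the GC trend removed and 1 with DESeq2; with a library left out, 455 values of named genes kept their direction and side of the threshold and 13 did not. Of the 44 counts over gene lists (each direction of each list), 40 moved by more than 1.5 times in the fit over 4 genotypes, 18 with the GC trend removed and 1 each with DESeq2, no filter and the replicate block.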
